A study of Mus musculus with 59 samples.

Results

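The genes described here encode structural proteins of the sarcomere, the contractile unit of striated muscle: titin (Ttn), nebulin (Neb), the myomesins (Myom1, Myom2 and Myom3), the skeletal myosin-binding proteins C (Mybpc1 and Mybpc2) and the sarcomeric α-actinins (Actn2 and Actn3). They were chosen by symbol, and each of the 9 symbols had a row among the 47643 gene symbols of the expression table. All 9 passed the filter on low values in the diaphragm, tibialis anterior and soleus fits, so none was lost from any comparison.

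A sarcomere runs between Z-discs, where α-actinin cross-links the ends of the thin (actin) filaments. Nebulin lies along the thin filament and helps to set its length. Titin spans from the Z-disc to the M-band at the sarcomere's middle and acts as a molecular spring, and at the M-band the myomesins cross-link titin to the thick (myosin) filaments. Myosin-binding protein C binds the thick filament and modulates cross-bridge formation. Some of these genes are known to follow fibre type: Actn3 and Mybpc2 are typical of fast fibres, Mybpc1 of slow fibres and many fast ones, Myom2 of fast fibres, Myom3 of slow and intermediate fibres, and Actn2 is made in all fibres.

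RNA-seq libraries of 59 muscles were analysed. All mice were females of the athymic strain NCI Ath/nude, aged 4 months, and carried a human melanoma xenograft in the flank. The xenograft was either cachectic, that is, it causes wasting of muscle, or non-cachectic, and no tumour-free group was used here. For the diaphragm, mice with the cachectic melanoma gave 10 mock and 10 rFibcd1 libraries, and mice with the non-cachectic melanoma gave 9 and 10. For its own comparison the paper states fewer diaphragms in both cachectic groups than the libraries used here. rFibcd1 is a recombinant fragment of the secreted protein Fibcd1, which the study examined for its action on myofiber size, and it was injected intraperitoneally, as was the mock solution of albumin in buffered saline. Tibialis anterior, a limb muscle made mostly of fast fibres, and soleus, a limb muscle rich in slow fibres, came from cachectic and non-cachectic mice (n = 5 for each muscle and melanoma), and their labels name no injection. Each melanoma is represented by a single xenograft line, so the cachectic state and other properties of that tumour cannot be told apart. The labels call the libraries biological replicates without naming the mouse of each, so p-values measure the spread between these libraries.

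Values are TPM, an abundance per length of transcript that sums to a fixed total in every library, which can be compared between genes of different length. The sequencing depth behind them is unknown, and the number of genes with a value above 0 was lowest in tibialis anterior (16436 to 17673), followed by soleus (17514 to 18191) and diaphragm (17950 to 19456). The identity of the muscles was checked with the fast myosin Myh4 and the slow myosin Myh7. Myh4 was at 7593 to 14537 TPM in tibialis anterior and at 7.34 to 24.9 TPM in non-cachectic soleus, and Myh7 was at 0.271 to 4.83 TPM in tibialis anterior and at 4288 to 7886 TPM in soleus. In 1 cachectic soleus library, SOL7_CACMEL, Myh4 reached 4989 TPM, so soleus results for the fast-fibre pair Mybpc2 and Actn3 are given with and without it. Mitochondrial transcripts took a smaller share of TPM with the cachectic melanoma, 38.8% ± 8.12 against 48.5% ± 1.80 (SD, n = 5 each) in tibialis anterior, 30.5% ± 3.92 against 41.1% ± 2.00 (SD, n = 5 each) in soleus and 38.1% ± 3.18 (SD, n = 10) against 47.5% ± 2.97 (SD, n = 9) in mock diaphragm. Over all genes tested, the median log2 fold change was 0.41 in tibialis anterior, 0.09 in soleus and 0.20 in mock diaphragm. Fold changes are also given after median-ratio scaling, which divides each library by the median of its ratios to a reference library. Where groups are said not to overlap, the share of all genes without overlap was not counted.

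The loci are spread over 8 chromosomes of GRCm38, with exons and exonic bases counted on the longest transcript of each gene in the GENCODE M21 annotation. Ttn is on chr2:76703980-76982547 (minus strand, 347 exons, 106824 exonic bases) and Neb on chr2:52136647-52378474 (minus strand, 157 exons, 22489 exonic bases). Myom1 is on chr17:71002633-71126856 (plus strand), Myom2 on chr8:15057653-15133541 (plus strand) and Myom3 on chr4:135759715-135815564 (plus strand). Mybpc1 is on chr10:88518279-88605152 (minus strand), Mybpc2 on chr7:44501699-44524656 (minus strand), Actn2 on chr13:12269426-12340760 (minus strand) and Actn3 on chr19:4861216-4877909 (minus strand). These last 7 genes have 2887 to 5648 exonic bases in 21 to 38 exons, so Ttn and Neb are far longer than the other members. Reads of the paralogues can be told apart in nearly all of their length: Actn2 and Actn3 shared 2 stretches of 50 bases, and the myomesins shared none with any other gene. Of the stretches of Mybpc1 and Mybpc2, 5.24% and 2.72% occurred in another annotated gene model, Gm48752 and Gm44646. Myom1 overlaps Myl12a on the opposite strand, a gene that reached 988 TPM, and since the sources differ on whether the libraries kept strand, Myom1 values are uncertain.

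The promoter sequences are printed for 5 members that had an entry and changed in a limb muscle, to show the DNA in front of genes that moved together or in opposite directions. Each sequence is the 250 bases before the RefSeq start of the gene (GRCm38.p6, RefSeq), read 5′ to 3′ on the strand of the gene, in lower case, and capitals mark a motif found in it. Of the 9 members, 6 had an entry, and Neb, Myom2 and Actn3 had none.
Actn2 (chr13:12340733-12340982, minus strand): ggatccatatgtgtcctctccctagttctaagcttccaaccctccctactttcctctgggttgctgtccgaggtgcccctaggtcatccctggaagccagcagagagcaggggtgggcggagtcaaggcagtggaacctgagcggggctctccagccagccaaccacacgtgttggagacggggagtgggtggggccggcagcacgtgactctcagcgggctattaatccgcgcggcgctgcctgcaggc
Myom3 (chr4:135759465-135759714, plus strand): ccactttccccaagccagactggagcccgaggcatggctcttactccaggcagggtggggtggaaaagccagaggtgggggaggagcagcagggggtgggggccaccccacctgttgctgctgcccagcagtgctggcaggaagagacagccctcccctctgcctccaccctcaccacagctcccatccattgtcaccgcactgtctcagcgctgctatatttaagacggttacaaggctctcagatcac
Mybpc1 (chr10:88605153-88605402, minus strand): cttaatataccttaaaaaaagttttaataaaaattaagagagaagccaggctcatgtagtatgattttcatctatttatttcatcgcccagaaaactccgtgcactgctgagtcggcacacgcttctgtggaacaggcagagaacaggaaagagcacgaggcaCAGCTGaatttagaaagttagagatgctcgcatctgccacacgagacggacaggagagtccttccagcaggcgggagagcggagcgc
Mybpc2 (chr7:44524670-44524919, minus strand): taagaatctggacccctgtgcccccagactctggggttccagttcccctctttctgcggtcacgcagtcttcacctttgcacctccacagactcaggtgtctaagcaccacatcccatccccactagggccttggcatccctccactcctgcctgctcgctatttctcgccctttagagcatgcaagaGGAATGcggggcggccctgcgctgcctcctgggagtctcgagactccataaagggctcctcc
Ttn (chr2:76982548-76982797, minus strand): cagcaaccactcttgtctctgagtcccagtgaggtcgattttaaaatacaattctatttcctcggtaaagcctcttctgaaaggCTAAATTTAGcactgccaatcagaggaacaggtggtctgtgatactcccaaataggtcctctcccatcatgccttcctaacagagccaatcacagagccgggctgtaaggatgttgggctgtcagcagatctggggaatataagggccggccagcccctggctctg
The motifs searched, on both strands, were the MEF2 box CTANNNNTAG, the E-box CAGCTG, the MCAT element CATTCC and the TATA box TATAAA. The capitals in Mybpc1 are an E-box at bases -87 to -82, those in Mybpc2 an MCAT element read on the other strand at -62 to -57, and those in Ttn a MEF2 box at -166 to -157. Each of these motifs was in 1 of the 6 promoters, and the TATA box letters were in 0 of 6. Among 32851 promoters of the same length, the MEF2 box was in 3.2%, the E-box in 13%, the MCAT element in 12.6% and the TATA box letters in 12.4%. No motif was found in the Actn2 and Myom3 windows, which says only that these letters are not there.

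Levels of the titin gene differed little between muscles compared with those of the fibre-type genes. In non-cachectic libraries, Ttn was at 248, 203, 231, 231 and 251 TPM in tibialis anterior, at 249, 350.5, 260.5, 363 and 395 TPM in soleus and between 155 and 219 TPM (median 178) in mock diaphragm. The tibialis anterior and soleus ranges overlapped, and the diaphragm range lay below that of soleus. Neb was at 666, 505, 595, 596 and 674 TPM in tibialis anterior, at 403, 530.1, 416, 520.0 and 609 TPM in soleus and between 219.7 and 304 TPM (median 281) in diaphragm. Every diaphragm library lay below every limb library for Neb. Markers of other cells differed between these groups too. Red blood cell markers summed to 1910 to 9606 TPM in diaphragm, 279 to 975 in tibialis anterior and 514 to 1505 in soleus. Mesothelium markers summed to 63.7 to 190, 0.204 to 0.641 and 0.634 to 1.30 TPM in that order. Tendon markers were higher in soleus (338 to 487 TPM) than in diaphragm (27.4 to 73.1 TPM). Their part in the differences between muscles was not tested.

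Among the myomesins, Myom1 was the most even across muscles, Myom2 was highest in tibialis anterior, and Myom3 was lowest there. In non-cachectic libraries the mean of Myom1 was 638 ± 30.1 TPM for soleus and 527 ± 61.4 TPM for tibialis anterior (SD, n = 5 each), and diaphragm had 431 ± 28.5 TPM (SD, n = 9). Myom2 was at 429, 398, 496, 419 and 493 TPM in tibialis anterior, at 169, 180.4, 144, 118 and 109 TPM in soleus and between 59.9 and 116 TPM (median 78.3) in diaphragm. Tibialis anterior therefore stood above the other muscles in every library, whereas soleus and diaphragm overlapped. Myom3 was at 7.83, 17.4, 7.36, 9.09 and 24.3 TPM in tibialis anterior, at 255, 296, 368, 295 and 353 TPM in soleus and between 137 and 222 TPM (median 175) in diaphragm. The 3 muscles did not overlap for Myom3, and diaphragm averaged 13.2 times the tibialis anterior level.

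The myosin-binding proteins C and the α-actinins separated the muscles more widely. Mybpc2, the fast form, was at 2265, 1285, 2211, 2299 and 1972 TPM in non-cachectic tibialis anterior, at 10.5, 1.59, 2.01, 27.0 and 0.982 TPM in soleus and between 336 and 555 TPM (median 406) in diaphragm. Actn3 was at 4116, 2243, 3569, 3709 and 2831 TPM in tibialis anterior, at 13.3, 8.03, 9.21, 27.2 and 8.80 TPM in soleus and between 48.2 and 259 TPM (median 95.5) in diaphragm. No range of either gene overlapped between muscles, and the tibialis anterior mean was 239 times the soleus mean for Mybpc2 and 248 times for Actn3. Their paralogues were present in all muscles: Mybpc1 had a mean of 2918 ± 146 TPM for soleus and 1780.2 ± 84.6 TPM for tibialis anterior (SD, n = 5 each), and of 1465 ± 96.5 TPM for diaphragm (SD, n = 9). Actn2 had a mean of 2637 ± 209 TPM for soleus and 846 ± 174 TPM for tibialis anterior (SD, n = 5 each), and of 997 ± 100.1 TPM for diaphragm (SD, n = 9).

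**Figure D1:**
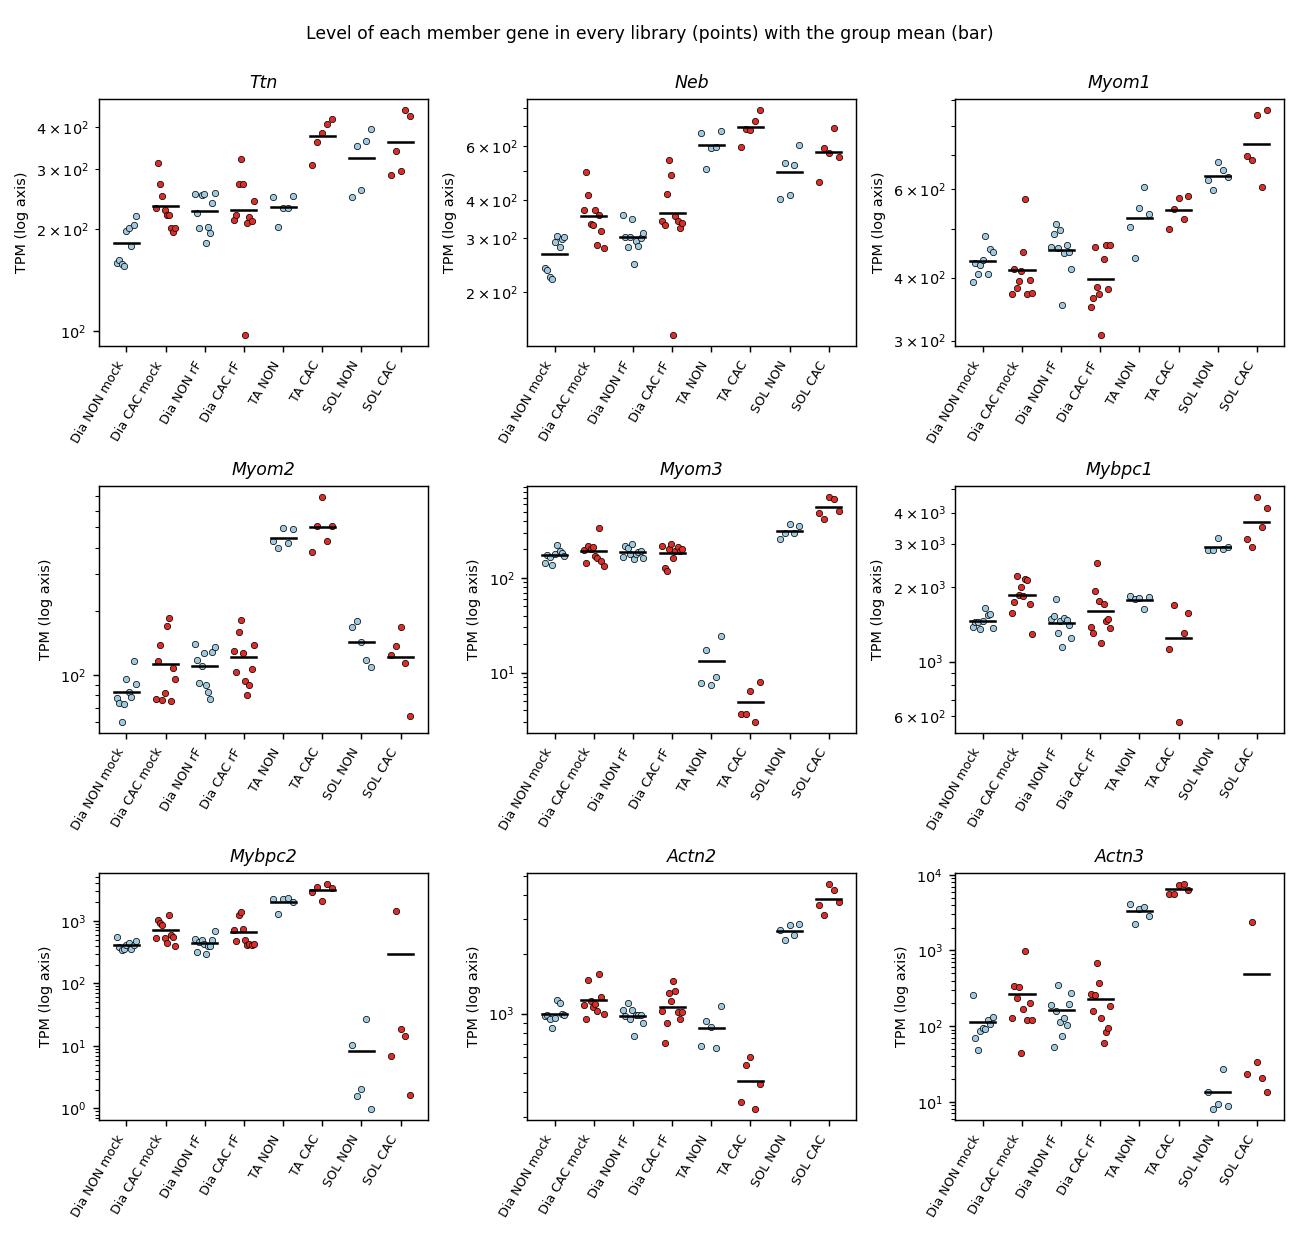
TPM (log axis) of each of the 9 genes in every library of the 8 groups, with blue points for non-cachectic and red points for cachectic libraries and bars for group means. Actn3 and Mybpc2 span the widest range, from about the level of SOL_NONCAC (means 13.3 and 8.40 TPM) to TA_CAC (means 6468 and 3107 TPM), whereas Ttn group means lie between 182 and 376 TPM.

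Together the 9 genes took 0.412% ± 0.0301 of TPM in non-cachectic mock diaphragm (SD, n = 9), 0.975% ± 0.116 in non-cachectic tibialis anterior and 0.749% ± 0.0358 in non-cachectic soleus (SD, n = 5 each). With the cachectic melanoma the shares were 1.34% ± 0.123 in tibialis anterior, 1.06% ± 0.131 in soleus (SD, n = 5 each) and 0.531% ± 0.0859 in diaphragm after mock injection (SD, n = 10). Diaphragm with rFibcd1 had 0.488% ± 0.110 in cachectic and 0.43% ± 0.0402 in non-cachectic mice (SD, n = 10 each). In all groups these are levels in whole muscle, in which fewer fibres of a type and less RNA per fibre cannot be told apart.

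In order of group means, Actn3 and Mybpc2 were highest in cachectic and then non-cachectic tibialis anterior, with each step larger than the SD of either neighbour. Actn2, Myom3 and Mybpc1 were highest in cachectic soleus and then non-cachectic soleus, again by more than the SD. At the other end of the order, Myom3 and Actn2 were lowest in cachectic tibialis anterior, below non-cachectic tibialis anterior by more than the SD for Actn2 and for Myom3. For Ttn, cachectic tibialis anterior, cachectic soleus and non-cachectic soleus came first and did not differ beyond their SD, followed by a gap to the other groups. For Neb, cachectic tibialis anterior stood above the rest, and non-cachectic tibialis anterior, cachectic soleus and non-cachectic soleus followed without a step beyond the SD, above all diaphragm groups.

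The differences between muscles were tested in non-cachectic libraries by limma across all genes, with Benjamini-Hochberg adjustment and an adjusted p under 0.05 for a call. For tibialis anterior against soleus, all 9 members were called, 4 higher in tibialis anterior and 5 lower, where 5.63% of all 13501 genes tested were called higher and 63.9% lower. The log2 fold change was 8.48 (SE 0.83) for Mybpc2, 7.96 (SE 0.78) for Actn3, 1.65 (SE 0.23) for Myom2 and 0.30 (SE 0.13) for Neb, with adjusted p = 1.05e-10, 9.91e-11, 1.58e-07 and 0.0426. It was -4.60 (SE 0.24) for Myom3, -1.66 (SE 0.15) for Actn2, -0.71 (SE 0.17) for Mybpc1, -0.45 (SE 0.14) for Ttn and -0.28 (SE 0.10) for Myom1, with adjusted p = 1.08e-17, 7.75e-12, 0.000411, 0.00387 and 0.0106. The small changes depended on scaling, since the median of all genes was -0.47. After median-ratio scaling 28.6% of genes were higher and 25.1% lower, Ttn and Myom1 turned to 0.17 (adjusted p = 0.321) and 0.35 (adjusted p = 0.0248), Mybpc1 was at -0.08 (adjusted p = 0.792), and the directions of Mybpc2, Actn3, Myom2, Neb, Myom3 and Actn2 stayed. The call of Neb with TPM as deposited was lost when any of 6 libraries was left out, and that of Myom1 was lost without TA62_NONCACMEL. The Dunn test on the same values called 4 members, Mybpc2 and Actn3 higher and Myom3 and Actn2 lower, beside 2.86% of genes higher and 34.1% lower.

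Diaphragm against tibialis anterior gave 7 calls, with Myom3 higher and Neb, Ttn, Mybpc2, Myom2, Myom1 and Actn3 lower, where 64% of genes were called higher and 8.52% lower. On the log2 scale Myom3 differed by 3.76 (SE 0.22, adjusted p = 6.44e-17), Actn3 by -4.98 (SE 0.69, adjusted p = 9.13e-08) and Myom2 by -2.43 (SE 0.20, adjusted p = 1.32e-12). Neb differed by -1.19 (SE 0.12, adjusted p = 7.45e-11), whereas Ttn differed by -0.36 (SE 0.12, adjusted p = 0.00775). With the median of all genes at 0.44, median-ratio scaling gave 34.3% of genes higher and 36.8% lower and 8 members lower, with Mybpc1 at -0.86 (adjusted p = 0.00025) and Actn2 at -0.33 (adjusted p = 0.0143), the latter with the sign opposite to its 0.25 (adjusted p = 0.0746) as deposited. Diaphragm against soleus gave 9 calls under both scalings, 2 higher and 7 lower, where 16.8% of genes were higher and 22.1% lower as deposited and 23.1% and 24.1% after scaling. Mybpc2 (log2 fold change 6.22, SE 0.73, adjusted p = 1.73e-08) and Actn3 (2.98, SE 0.69, adjusted p = 0.000737) were the higher pair. The other 7 members were lower, with log2 fold changes from -1.41 (Actn2) to -0.57 (Myom1), and with Neb at -0.89 and Ttn at -0.82. By the Dunn test 4 members were called for diaphragm against tibialis anterior (Neb, Mybpc2, Myom2 and Actn3, all lower), beside 44.8% of genes higher and 6.19% lower, and 3 for diaphragm against soleus (Ttn, Mybpc1 and Myom1, all lower), beside 1.73% and 6.99%. The 3 comparisons share libraries and are therefore not independent.

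**Figure D2:**
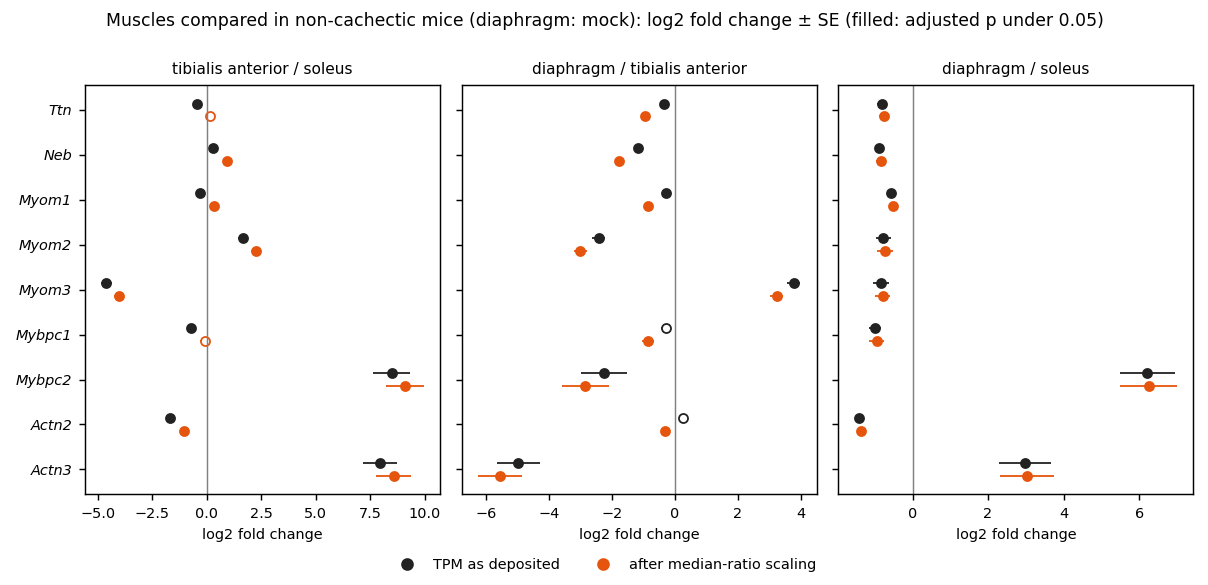
Log2 fold change ± SE of each gene between muscles of non-cachectic mice in 3 panels, with black points for TPM as deposited, orange points after median-ratio scaling and filled points for adjusted p under 0.05 (limma). Mybpc2 (8.48) and Actn3 (7.96) lie farthest to the tibialis anterior side against soleus and Myom3 (-4.60) farthest to the soleus side. In that panel Ttn and Myom1 lie near 0 and change side with the scaling, whereas in both diaphragm panels they lie below 0 under both scalings.

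In tibialis anterior, the cachectic melanoma went with higher Ttn, Actn3 and Mybpc2 and with lower Actn2, Myom3 and Mybpc1. Ttn was at 308, 360.0, 383, 406 and 423 TPM in cachectic and at 248, 203, 231, 231 and 251 TPM in non-cachectic libraries. Actn3 was at 5508, 5624, 7433, 7466 and 6309 TPM in cachectic libraries, against 2243 to 4116 TPM in non-cachectic ones. Every cachectic library lay above every non-cachectic library for both genes, whose means were 1.62 and 1.96 times those of the non-cachectic group. Actn2 went the other way, at 355, 550.1, 601, 329 and 442 TPM in cachectic and at 688, 921, 859, 669.9 and 1090.4 TPM in non-cachectic libraries, with no overlap and a mean 0.539 times that of the non-cachectic group. Myom3, the myomesin of slow and intermediate fibres, was at 3.67, 3.62, 6.45, 3.02 and 8.06 TPM in cachectic libraries, against 7.36 to 24.3 TPM in non-cachectic ones, and the groups overlapped. Mybpc1 was at 1123, 1685, 569, 1303 and 1570.4 TPM in cachectic and at 1845, 1788, 1810.2, 1633 and 1824 TPM in non-cachectic libraries. The library TA8_CACMEL held the lowest value of Mybpc1 in either group and also the lowest of cachectic Mybpc2 (2073 TPM). Mybpc2 was at 2884, 3454, 2073, 3819 and 3303 TPM in cachectic libraries, against 1285 to 2299 TPM.

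By limma, 3 members were called higher and 3 lower, where 56.4% of 11105 genes tested were called higher and 3.78% lower, so the higher calls lay below the background share of higher genes and the lower calls stood against a small one. The log2 fold change was 0.68 for Ttn (SE 0.11, adjusted p = 0.000957), 0.99 for Actn3 (SE 0.17, adjusted p = 0.00128) and 0.63 for Mybpc2 (SE 0.19, adjusted p = 0.0169). It was -0.91 for Actn2 (SE 0.19, adjusted p = 0.00368), -1.18 for Myom3 (SE 0.33, adjusted p = 0.0119) and -0.60 for Mybpc1 (SE 0.24, adjusted p = 0.0456). Neb was at 0.20 (adjusted p = 0.128), Myom2 at 0.15 (adjusted p = 0.383) and Myom1 at 0.06 (adjusted p = 0.634). After median-ratio scaling, with 18.2% of genes higher and 22% lower, no member was called higher and 5 were called lower: Actn2 at -1.41, Myom3 at -1.61, Mybpc1 at -1.10, Myom1 at -0.45 and Myom2 at -0.35, with adjusted p = 0.00036, 0.00323, 0.034, 0.0302 and 0.0233. Ttn was then at 0.18 (adjusted p = 0.309), Actn3 at 0.49 (adjusted p = 0.0635) and Mybpc2 at 0.13 (adjusted p = 0.745). The call of Mybpc1 was lost without any of 7 of the 10 libraries, with adjusted p between 0.0587 and 0.0802, and without TA8_CACMEL its fold change was -0.34 (adjusted p = 0.0172). The summed level of 10 other long transcripts, chosen to set beside titin and nebulin, was 862 to 1288 TPM in cachectic and 678 to 800 TPM in non-cachectic tibialis anterior, and 7 of the 10 were called higher. Fibroblast markers summed to 196 to 421 TPM in cachectic and 113 to 213 TPM in non-cachectic tibialis anterior. Tendon markers lay lower, at 11.7 to 39.7 TPM against 29.6 to 50.8 TPM. The part of the long transcripts and of these cells in the Ttn result was not tested.

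In soleus, Myom3 and Actn2 were higher with the cachectic melanoma, and the groups did not overlap. Myom3 was at 485, 422, 706, 674 and 512 TPM in cachectic and at 255, 296, 368, 295 and 353 TPM in non-cachectic libraries, a ratio of means of 1.79. Actn2 was at 3566, 3161, 4515, 4208 and 3664 TPM in cachectic and at 2644, 2373, 2828, 2487 and 2851 TPM in non-cachectic libraries, a ratio of 1.45. Both were among the genes called lower in cachectic tibialis anterior. By limma the log2 fold changes were 0.82 (SE 0.15, adjusted p = 0.00349) and 0.53 (SE 0.11, adjusted p = 0.00651), and after median-ratio scaling 0.72 (adjusted p = 0.00257) and 0.43 (adjusted p = 0.0092). No member was called lower. Of 11957 genes tested, 17.5% were called higher and 7.54% lower as deposited, and 15.2% and 12.8% after scaling, so 2 members of 9 is close to the background.

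The other members were not called in soleus. Mybpc1 was at 3139, 2903, 4610.2, 3511 and 4187 TPM in cachectic libraries, against 2817 to 3168 TPM, with a log2 fold change of 0.31 (adjusted p = 0.0986) that became 0.39 (adjusted p = 0.0446) without SOL7_CACMEL. Neb was at 0.22 (adjusted p = 0.268), Ttn at 0.16 (adjusted p = 0.53), Myom1 at 0.20 (adjusted p = 0.183) and Myom2 at -0.28 (adjusted p = 0.413). The fast-fibre pair showed the library that stands apart: Mybpc2 was at 6.87, 1428, 18.7, 14.1 and 1.63 TPM and Actn3 at 23.4, 2357, 34.03, 20.4 and 13.4 TPM in cachectic soleus, with the second value of each from SOL7_CACMEL. The other 4 cachectic libraries of both genes overlapped with the non-cachectic ones. With all libraries Mybpc2 was at 2.16 on the log2 scale (SE 1.42, adjusted p = 0.29) and Actn3 at 2.15 (SE 1.15, adjusted p = 0.193), and with SOL7_CACMEL left out and median-ratio scaling they were at 0.60 (adjusted p = 0.642) and 0.70 (adjusted p = 0.178). In that fit Myom3 was at 0.80 (adjusted p = 0.00226) and Actn2 at 0.48 (adjusted p = 0.00959). The 4 tendon markers were called lower in cachectic soleus, with a summed level of 33.2 to 210 TPM against 338 to 487 TPM. Fibroblast markers summed to 179 to 456 TPM in cachectic and 473 to 606 TPM in non-cachectic soleus, heart markers, of which only Myh6 passed the filter, to 1121 to 1617 against 814 to 1075 TPM, and the 10 long transcripts to 1202 to 1829 against 1038 to 1132 TPM. The part of these in the result was not tested. When mitochondrial transcripts were taken out of the total, Myom3 stayed called (0.58, adjusted p = 0.00863) and Actn2 did not (0.29, adjusted p = 0.0562), where 7.46% of genes were higher and 23% lower.

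In the diaphragm of mock-injected mice, Neb, Ttn, Mybpc2 and Mybpc1 were higher with the cachectic melanoma as deposited, but no member was called after median-ratio scaling. Ttn was between 196 and 312 TPM (median 224) in cachectic and between 155 and 219 TPM (median 178) in non-cachectic libraries. Neb was between 279 and 494 TPM (median 346), against 219.7 to 304 TPM (median 281). Mybpc2 was between 391 and 1240.0 TPM (median 569), against 336 to 555 TPM (median 406). The highest value of each of these was in a cachectic library, and the groups overlapped for all 9 genes. Mybpc1 was between 1297 and 2221 TPM (median 1852), against 1349 to 1639 TPM (median 1449). Actn3 had the widest spread, between 44.4 and 969 TPM (median 187), against 48.2 to 259 TPM (median 95.5). Actn2 was between 938 and 1592 TPM (median 1112), against 841 to 1172 TPM (median 979).

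The log2 fold changes by limma were 0.41 for Neb (SE 0.14, adjusted p = 0.0235), 0.35 for Ttn (SE 0.13, adjusted p = 0.0324), 0.69 for Mybpc2 (SE 0.22, adjusted p = 0.0141) and 0.33 for Mybpc1 (SE 0.10, adjusted p = 0.0146). They stood against 30.9% of 13426 genes called higher and 2.67% called lower. Actn3 was at 0.93 (SE 0.42, adjusted p = 0.0855), Myom2 at 0.38 (adjusted p = 0.0762), Actn2 at 0.22 (adjusted p = 0.0863), Myom3 at 0.10 (adjusted p = 0.566) and Myom1 at -0.07 (adjusted p = 0.504). After median-ratio scaling, with 7.39% of genes higher and 8.47% lower, 2 members had an unadjusted p under 0.05 and none an adjusted one, and Neb, Ttn, Mybpc2 and Mybpc1 were at 0.18, 0.12, 0.46 and 0.10 with adjusted p = 0.31, 0.464, 0.162 and 0.647. When mitochondrial transcripts were left out of the total, these 4 calls were lost and Myom1 was called lower (-0.31, adjusted p = 0.0301), where 6.43% of genes were higher and 7.09% lower. The Dunn test called 4 members with TPM as deposited, where it called 38% of genes higher and 2.5% lower. The call of Neb was lost without Dia7_CACMEL (0.35, adjusted p = 0.0511), and that of Ttn without any of 6 libraries, Dia7_CACMEL and Dia8_CACMEL among them (adjusted p 0.0581 to 0.0678). The 10 other long transcripts summed to 881 to 1246 TPM in cachectic and 760.0 to 911 TPM in non-cachectic mock diaphragm, and 3 of them were called higher, with a median log2 fold change of 0.24. Adipocyte markers summed to 1129 to 5118 TPM (median 1608) against 695 to 2213 TPM (median 799), with 1 of 4 called higher and a median log2 fold change of 0.92, and smooth muscle markers had 3 of 4 called higher. The part of these in the results was not tested.

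Diaphragm libraries also fell into 2 states by the pseudogene Pcna-ps2 (at or above 1 TPM, or below it), a split found in the data that is no label of the study. The high state held 9 of 10 cachectic mock, 8 of 10 cachectic rFibcd1, 3 of 9 non-cachectic mock and 6 of 10 non-cachectic rFibcd1 libraries. In non-cachectic mock diaphragm Ttn was at 209 ± 9.01 TPM in the high state (SD, n = 3) and at 168 ± 16.4 TPM in the low state (SD, n = 6). With the state as a term in the fit, 1 member stayed called, Mybpc1 at 0.35 (adjusted p = 0.0332), where 12.3% of genes were higher and 3.03% lower. Among high-state libraries alone limma called 0 members, with 1 at an unadjusted p under 0.05, where 5% of genes were higher and 0.685% lower. In tibialis anterior and soleus all 10 cachectic libraries were in the high state and all 10 non-cachectic ones in the low state, so state and melanoma cannot be told apart there.

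In the diaphragm of rFibcd1-injected mice no member was called between the melanomas, where 7.14% of genes were called higher and 1.97% lower. Mybpc2 and Myom1 had an unadjusted p under 0.05, and the Dunn test called 0 members and 0% of all genes in either direction. Ttn was between 97.5 and 322 TPM (median 218) in cachectic and between 182 and 255 TPM (median 231) in non-cachectic libraries, with a log2 fold change of -0.03 (adjusted p = 0.899). Neb was between 144 and 541 TPM (median 341), against 247 to 356 TPM (median 301), with a change of 0.19 (adjusted p = 0.385). The lowest Ttn and the lowest Neb were in the same library, Dia11_CACMELwithRFIBCD1, and without it Neb was at 0.33 (adjusted p = 0.0302). The 10 other long transcripts summed to 450.1 to 1308 TPM in cachectic and 751 to 1017 TPM in non-cachectic rFibcd1 diaphragm, with 2 called lower and a median log2 fold change of -0.12, and their part in these values was not tested. Mybpc2 was at 0.48 (SE 0.21, adjusted p = 0.142) and Myom1 at -0.20 (SE 0.08, adjusted p = 0.0926). Myom1 was called without Dia18_CACMELwithRFIBCD1 (-0.22, adjusted p = 0.0481), without Dia56_NONCACMELwithRFIBCD1 (-0.24, adjusted p = 0.0282), and when mitochondrial transcripts were left out of the total (-0.35, adjusted p = 0.0186), a fit that called 2.81% of genes higher and 5.86% lower.

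rFibcd1 against mock gave no call by limma among the 9 genes within either melanoma. In cachectic diaphragm the log2 fold changes ran from -0.22 (Mybpc1, adjusted p = 0.445) to 0.14 (Myom2), with 1 member at an unadjusted p under 0.05, where 0.0372% of genes were called higher and 0.00745% lower. In non-cachectic diaphragm Ttn was at 0.31 (SE 0.13, adjusted p = 0.263), Myom2 at 0.39 (SE 0.17, adjusted p = 0.268) and Actn3 at 0.49 (SE 0.42, adjusted p = 0.457), with 2 members, Ttn and Myom2, at an unadjusted p under 0.05. The background there was 0.35% called higher and 0.067% lower. When only the non-cachectic diaphragm groups entered the fit, Ttn (adjusted p = 0.0212) and Myom2 (adjusted p = 0.0405) were called higher, where 19% of all genes were called higher and 0.582% lower. In the 4-group fit with median-ratio scaling they were at 0.13 (adjusted p = 0.824) and 0.21 (adjusted p = 0.819). In the same comparison the median log2 fold change was 1.01 for adipocyte markers, 0.44 for fibroblast markers, 0.41 for macrophage markers and 0.23 for the long transcripts, of which 1 of 10 was called higher, beside 0.15 for all genes, and their part in the Ttn and Myom2 values was not tested. The interaction of rFibcd1 with melanoma gave no call, with Ttn at -0.39 (SE 0.18, adjusted p = 0.564) as the 1 member with an unadjusted p under 0.05 and Actn3 at -0.62 (SE 0.59, adjusted p = 0.759), where 0.00745% of genes were called higher and 0.0149% lower. The Dunn test called 0 members in both comparisons of rFibcd1 with mock, and of all genes it called 0% in either direction in cachectic diaphragm and 0.0894% higher and 0.0149% lower in non-cachectic diaphragm.

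**Figure D3:**
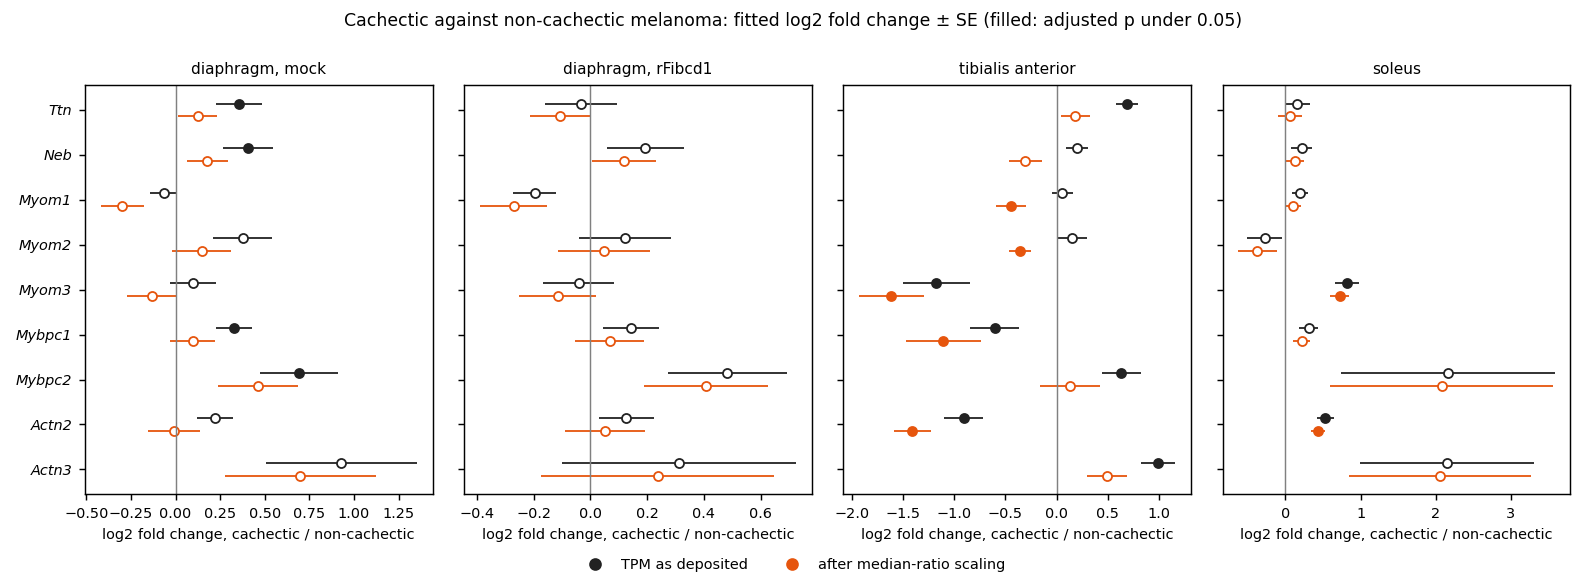
Log2 fold change ± SE of each gene, cachectic against non-cachectic, in tibialis anterior, soleus and diaphragm with mock or rFibcd1, with black points for TPM as deposited, orange points after median-ratio scaling and filled points for adjusted p under 0.05 (limma). Actn2 and Myom3 lie below 0 in tibialis anterior (-0.91 and -1.18) and above 0 in soleus (0.53 and 0.82) under both scalings.

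The difference of the melanoma effect between muscles was tested directly, in mock diaphragm and both limb muscles. Tibialis anterior minus soleus gave 4 calls: Actn2 at -1.43 (SE 0.21, adjusted p = 2.4e-05), Myom3 at -2.0 (SE 0.35, adjusted p = 0.000258) and Mybpc1 at -0.91 (SE 0.24, adjusted p = 0.00903) moved less or downward in tibialis anterior, and Ttn at 0.53 (SE 0.19, adjusted p = 0.0477) moved further upward there. The background was 19.1% of genes called higher and 1.26% lower. Ttn was at 0.12 (adjusted p = 0.79) after median-ratio scaling, where the other 3 and Myom1 (-0.56, adjusted p = 0.0446) were called lower beside 3.79% of genes higher and 7.82% lower, and its call as deposited was lost without any of 19 of the 39 libraries. Diaphragm minus tibialis anterior gave 3 calls, with Actn2 at 1.13 (SE 0.18, adjusted p = 0.000172), Mybpc1 at 0.93 (SE 0.21, adjusted p = 0.00798) and Myom3 at 1.27 (SE 0.30, adjusted p = 0.0117), where 0.711% of genes were called higher and 4.33% lower. These were at 1.39, 1.20 and 1.52 after scaling, when 3.21% of genes were higher and 2.04% lower. Diaphragm minus soleus gave no call by limma, with 3 members at an unadjusted p under 0.05 (Myom3 at -0.72, SE 0.30, adjusted p = 0.223, and Myom2 at 0.65, adjusted p = 0.241, with Myom1), where 1.95% of genes were called higher and 0.57% lower. The tibialis anterior libraries enter both of the differences that gave calls.

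Ratios within a library depend little on how its total is scaled, except for genes near the pseudocount of 1 such as Mybpc2 in soleus, and paralogues and the titin-nebulin pair were also compared as log2 ratios of TPM + 1. In tibialis anterior, the ratio of Actn3 to Actn2 was 3.85 ± 0.43 on the log2 scale in cachectic and 1.95 ± 0.60 in non-cachectic libraries (SD, n = 5 each), a difference of 1.90. That of Mybpc2 to Mybpc1 was 1.38 ± 0.35 against 0.14 ± 0.37 (SD, n = 5 each), 1.23 higher. The ratio of Neb to Ttn was 0.89 ± 0.06 in cachectic and 1.38 ± 0.05 in non-cachectic libraries (SD, n = 5 each), a difference of -0.49, and the ranges of 0.82 to 0.96 and 1.31 to 1.42 lay well apart. Each of these ratios gave an exact two-sided permutation p = 0.00794, the smallest that 5 against 5 libraries allow, and an adjusted p = 0.034 over the 30 ratio comparisons made. Hence in tibialis anterior Actn3 gained on Actn2, Mybpc2 on Mybpc1 and Ttn on Neb, within the same libraries. Myom3 to Myom1 fell by 1.23 (exact permutation p = 0.0159, adjusted p = 0.0595), and Myom2 to Myom1 differed by 0.09 (exact permutation p = 0.532).

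In soleus, Myom3 to Myom1 was -0.41 ± 0.37 in cachectic and -1.03 ± 0.19 in non-cachectic libraries (SD, n = 5 each), a difference of 0.62 (exact permutation p = 0.00794, adjusted p = 0.034). The other ratios were not called there, with Neb to Ttn differing by 0.06 (exact permutation p = 0.579), Myom2 to Myom1 by -0.48 (exact permutation p = 0.175), and Actn3 to Actn2 by 1.62 (exact permutation p = 0.325) and Mybpc2 to Mybpc1 by 1.85 (exact permutation p = 0.365), while without SOL7_CACMEL these last differences were 0.21 and 0.30. In mock diaphragm, Myom2 to Myom1 was -1.93 ± 0.37 (SD, n = 10) against -2.38 ± 0.23 (SD, n = 9), so it was 0.44 higher (exact permutation p = 0.00602, adjusted p = 0.034), which among high-state libraries was 0.29 (adjusted p = 0.509). That call was lost without Dia62_NONCACMEL, Dia63_NONCACMEL or Dia66_NONCACMEL, with an adjusted permutation p of up to 0.0523. Neb to Ttn differed by 0.05 in mock diaphragm (exact permutation p = 0.322). With rFibcd1 it was 0.65 ± 0.11 in cachectic and 0.43 ± 0.10 in non-cachectic diaphragm (SD, n = 10 each), a difference of 0.23 (permutation p = 4e-05, adjusted p = 0.0012) that was 0.28 in high-state libraries (adjusted p = 0.0133). In non-cachectic diaphragm the same ratio was 0.12 lower with rFibcd1 than with mock, at 0.43 against 0.55 (exact permutation p = 0.00262, adjusted p = 0.034). Among high-state libraries, 6 against 3, it was 0.16 lower, with ranges of 0.27 to 0.45 and 0.47 to 0.59. The exact permutation p = 0.0238 (adjusted p = 0.238) is the smallest that so few libraries allow. In cachectic diaphragm it differed by 0.05 (permutation p = 0.378). In all, 7 of 30 ratio comparisons had an adjusted p under 0.05.

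**Figure D4:**
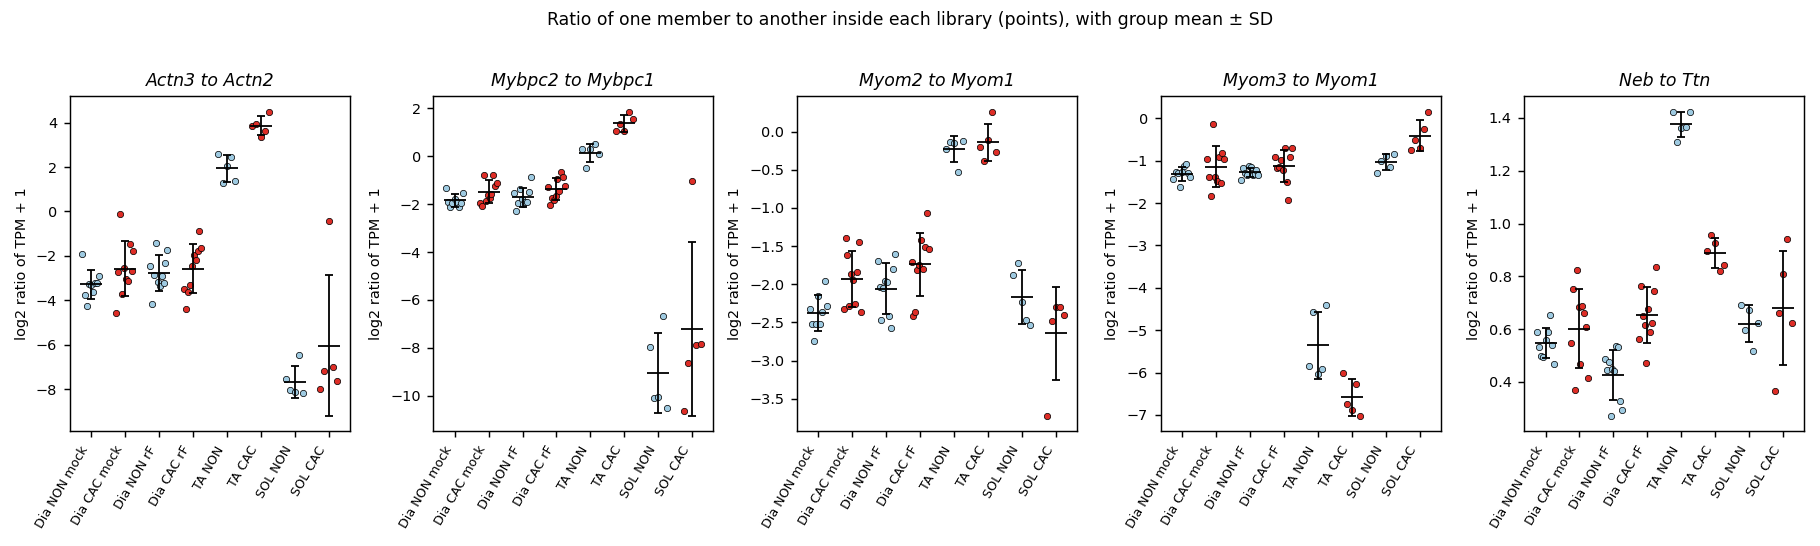
Log2 ratios of paralogues and of Neb to Ttn within each library, by group, with points for libraries and bars for mean ± SD. In tibialis anterior, Actn3 to Actn2 (3.85 against 1.95) and Mybpc2 to Mybpc1 (1.38 against 0.14) are higher in the cachectic group, and Neb to Ttn (0.89 against 1.38) is lower.

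Within groups, some members varied together from library to library. As a description without a test, the correlation (Pearson's r) of deviations from the group mean on the log2 scale was 0.938 for Ttn and Neb over the 39 diaphragm libraries and 0.863 over the 20 limb libraries (0.874 without SOL7_CACMEL). For the fast pair Mybpc2 and Actn3 it was 0.818 in diaphragm and 0.944 in limb muscles (0.867 without SOL7_CACMEL), and for Actn3 and Myh4 it was 0.734 and 0.966 (0.853 without it). Myom3 and Actn2 gave 0.664 and 0.68, and Actn2 and Myh7 gave 0.626 and 0.371. Values of a library share its RNA, its scaling to a fixed total and its state, so genes of a library are not independent. The mitochondrial share of a library gave r from -0.453 (Actn2) to 0.293 (Myom1) over the 9 members in diaphragm, with Ttn at 0.00208 and Neb at -0.0484, and from -0.458 (Actn2) to 0.507 (Mybpc1) in limb muscles.

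**Figure D5:**
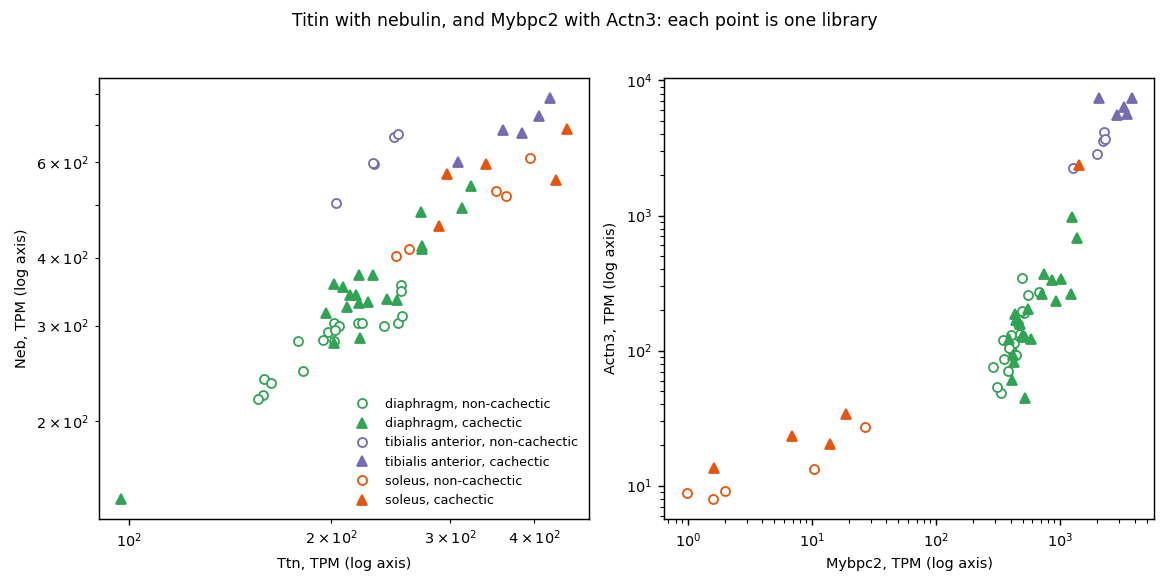
Ttn against Neb and Mybpc2 against Actn3 in the 59 libraries, in TPM on log axes (green diaphragm, purple tibialis anterior, orange soleus; open circles non-cachectic, filled triangles cachectic). Ttn and Neb rise together within each muscle, and the 1 soleus triangle far above the other soleus points for Mybpc2 (1428 TPM) and Actn3 (2357 TPM) is SOL7_CACMEL.

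The other sarcomere genes were described from a list of 46 genes of the Z-disc, M-band, thin and thick filaments and their assembly. In soleus, 26 of the 43 tested were called higher and 1 lower, where 17.5% and 7.54% of all genes were. After median-ratio scaling 21 were higher and 1 lower, where 15.2% and 12.8% of all genes were. With TPM as deposited, the median log2 fold change was 0.49 beside 0.09 over all genes. Of the Z-disc genes there, 14 of 19 were higher, and of the M-band genes and titin partners, 7 of 11. Ankrd1, a titin-binding stress-responsive ankyrin repeat protein, was at 2.58 (adjusted p = 0.00126), and Csrp3, the muscle LIM protein of the Z-disc, at 1.94 (adjusted p = 0.00279). Mybph, a further myosin-binding protein, was at 3.99 (SE 0.79, adjusted p = 0.00452), with 166.5 ± 200 TPM in cachectic and 4.40 ± 1.81 TPM in non-cachectic libraries (SD, n = 5 each), SOL7_CACMEL included. Lmod3, a leiomodin that nucleates thin filaments, was the gene called lower, at -0.71 (adjusted p = 0.00365).

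In tibialis anterior the list split, with 12 of 42 called higher and 10 lower, where 56.4% and 3.78% of all genes were. The median was 0.11 beside 0.41 over all genes. After median-ratio scaling 4 were higher and 18 lower, where 18.2% and 22% of all genes were. Des, the desmin gene, whose filaments link neighbouring Z-discs, was at 1.66 (SE 0.17, adjusted p = 8.7e-05), with 3013 ± 916 TPM in cachectic and 928 ± 123 TPM in non-cachectic libraries (SD, n = 5 each). Igfn1, a Z-disc immunoglobulin-domain protein, was at 2.65 (SE 0.51, adjusted p = 0.00263) and Tpm3, the slow tropomyosin gene, at 1.04 (adjusted p = 0.000484). On the lower side were Actc1, cardiac α-actin (-2.81, adjusted p = 0.000579), Csrp3 (-1.77, adjusted p = 0.0464) and Fhl1, a LIM protein (-1.38, adjusted p = 0.000366). In mock diaphragm 8 of 42 were higher, a smaller share than the 30.9% of all genes, and 3 were lower, where 2.67% of all genes were, with a median of 0.22 beside 0.20. After scaling 3 were higher and 7 lower, where 7.39% and 8.47% of all genes were. Des was at 1.05 there (SE 0.20, adjusted p = 0.000264), Ankrd2 at 2.03 (adjusted p = 0.00462), and Lmod3 at -0.79 (SE 0.15, adjusted p = 0.000229), with 134 ± 34.02 TPM (SD, n = 10) against 228 ± 30.8 TPM (SD, n = 9). With rFibcd1, 3 of 42 were higher and 1 lower between the melanomas, close to the 7.14% and 1.97% of all genes, with Des at 0.82 (adjusted p = 0.00763), Ankrd1 at 1.66 (adjusted p = 0.0412), Ankrd2 at 1.91 (adjusted p = 0.0188) and Lmod3 at -0.47 (adjusted p = 0.0366). After median-ratio scaling 3 were higher and 0 lower, where 4.29% and 4.81% of all genes were, with Lmod3 at -0.54 (adjusted p = 0.0566). rFibcd1 against mock gave 0 calls in this list by limma in either melanoma. Between muscles, 4 list genes moved further upward in tibialis anterior than in soleus and 12 less, where 19.1% and 1.26% of all genes did, led by Igfn1 (1.94) and by Mybph (-4.42) and Csrp3 (-3.71).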

How the data were processed

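The authors trimmed, filtered and aligned reads to GRCm38 (mm10) with CLC Genomics Workbench and deposited TPM per gene symbol. The annotation is not given in the sources used here, and labels and methods name different kits (stranded or not) and instruments. Columns carry a group and a number, which cannot be matched to the replicate numbers of the labels. Groups came from the labels.

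Here log2(TPM + 1) was tested two-sided with limma 3.58.1 in R 4.3.3 (lmFit, contrasts.fit, eBayes with trend) and Benjamini-Hochberg adjustment over all genes with TPM of at least 1 in as many libraries as the smallest group. Fits held the 39 diaphragm, 10 tibialis anterior, 10 soleus and, between muscles, 39 libraries without rFibcd1. A fold change on this scale understates changes of low genes. Ratios used permutation tests (SciPy 1.17.1; 100000 resamples with 10 libraries per group, otherwise every regrouping). The scripts were tested on simulated data. For each comparison, the 3 other sarcomere genes with the largest and the 3 with the smallest fold change among those called could be named, and for each member the 3 genes with the most similar group means. Members, lists and tests were chosen with earlier results of these data known. Depth is unknown, so no counting interval is given. Alternatives were another pseudocount, other filters, median-ratio scaling, TPM without mitochondrial genes, fits of only the groups compared, Dunn tests, the library state, and leaving out each library. The study used Dunn tests on log TPM. Columns of the same number were checked for pairing between muscles: their correlation of deviations was over 0.1 in all 10 pairs for diaphragm with tibialis anterior and for tibialis anterior with soleus, but as low as 0.0104 for diaphragm with soleus. The medians were 0.352, 0.407 and 0.295 in that order, against -0.033, -0.102 and -0.0323 for columns of other numbers. The same number may therefore mark 1 mouse, while the main fits between muscles treated all libraries as independent.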

Additional observations from a re-analysis of the deposited data

Results flagged for a closer look

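Of the 72 combinations of gene and group, 11 held a library farther from the others than Dixon's 95% critical value, where chance alone would put about 1 in 20 there. For Ttn this was the lowest cachectic rFibcd1 diaphragm (97.5 TPM, Dia11_CACMELwithRFIBCD1), which also had the lowest Neb of its group. In cachectic mock diaphragm they were the highest Myom1 (574 TPM), Myom3 (338 TPM) and Actn3 (969 TPM). Actn3 had the highest library apart in cachectic rFibcd1 (684 TPM) and non-cachectic mock diaphragm (259 TPM) as well, and in cachectic (2357 TPM) and non-cachectic soleus (27.2 TPM). The cachectic soleus value and that of Mybpc2 (1428 TPM) came from the same library, SOL7_CACMEL. Mybpc1 had its lowest library apart in non-cachectic tibialis anterior (1633 TPM) and its highest in non-cachectic soleus (3168 TPM).

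With TPM as deposited, the limma test of the difference in melanoma effect between muscles called 7 combinations of gene and muscles. Diaphragm minus tibialis anterior was 1.27 for Myom3, 0.93 for Mybpc1 and 1.13 for Actn2 on the log2 scale. Tibialis anterior minus soleus was -2.0 for Myom3, -0.91 for Mybpc1 and -1.43 for Actn2. For Ttn it was 0.53 as deposited, but 0.12 (adjusted p = 0.79) after median-ratio scaling, and its call was lost without any of 19 of the 39 libraries.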

How the results depend on the processing

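Median-ratio scaling turned Ttn to 0.17 and Myom1 to 0.35 between tibialis anterior and soleus, and so did the same scaling without SOL7_CACMEL, an alternative chosen after seeing the data (0.17 and 0.34). In mock diaphragm the count of members called went from 4 to 0 with median-ratio scaling, 1 without mitochondrial genes (Myom1, lower), 1 with the library state as a term and 0 in high-state libraries alone. It was 1 for rFibcd1 diaphragm and 1 for soleus without mitochondrial genes, and 2 for rFibcd1 against mock in non-cachectic diaphragm with only those groups in the fit. The Dunn test, adjusted over all genes, called 4 members for tibialis anterior against soleus (2.86% of all genes higher, 34.1% lower), 4 for diaphragm against tibialis anterior (44.8% and 6.19%) and 3 for diaphragm against soleus (1.73% and 6.99%). The cause was not tested. Leaving out each library gave 2 (without Dia7_CACMEL) to 5 (without Dia6_CACMEL) calls in mock diaphragm, 0 to 1 in rFibcd1 diaphragm, and 2 (without TA6_CACMEL) to 8 (without Dia58_NONCACMELwithRFIBCD1) called ratios, where 4 against 5 libraries cannot reach the threshold after adjustment. With the column number as a replicate block (consensus correlation 0.381, chosen after seeing the data), the member counts were the same in the comparisons between muscles and in the differences of the melanoma effect, with 9 called for tibialis anterior against soleus. Within a muscle no block could be fitted, since its groups share no column numbers. A pseudocount of 0.1 moved no count. TPM keeps no depth, so what low levels such as Mybpc2 in soleus can resolve is unknown.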

Other observations

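Genes whose group means lay closest to those of each member were found by Pearson's r over the 8 group means of log2 level, among 5961 genes. The other sarcomere genes were not left out, and Myoz1 and Fhl1 below are among them. The values are descriptions over 8 points that share muscles, with no test. The pattern of Actn3 was closest to that of Tspan8 (0.998), Myoz1 (0.997), a fast-fibre Z-disc protein, and Myh4 (0.995). That of Mybpc2 was closest to Tnnt3, fast troponin T (0.994), Zfp503 (0.988) and Eif4e3 (0.986). Myom3 was closest to Esrrb (0.992), 2410131K14Rik (0.991) and Mppe1 (0.99), and Actn2 to Pla2g12a (0.985), A330074K22Rik (0.983) and Tspan3 (0.983). Mybpc1 was closest to Fhl1 (0.987), a LIM protein, Ddr1 (0.986) and Hspa1l (0.984), and Myom2 to Cd24a (0.99), 0610011F06Rik (0.99) and Ptp4a2 (0.987). The genes closest to Ttn were Usf3 (0.985), Larp1 (0.985) and Slc35b1 (0.974), those closest to Neb were Nek7 (0.992), Gse1 (0.986) and Kpna1 (0.98), and those closest to Myom1 were Hipk2 (0.986), Herc3 (0.974) and Uaca (0.974).

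Of the 4 smooth muscle markers, 2 were called higher in cachectic tibialis anterior, where 56.4% of all genes were. They summed there to 110.4 to 199.6 TPM in cachectic and 51.4 to 93.9 TPM in non-cachectic libraries. Macrophage markers summed to 29.8 to 224 TPM in cachectic and 19.3 to 37.3 TPM in non-cachectic tibialis anterior. The part of these cells in the results was not tested.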
